A study of Mus musculus with 12 samples.

Results

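The aquaporins of the mouse distal colon were followed as a gene family. The 8 members were fixed by name as Aqp1, Aqp3, Aqp4, Aqp5, Aqp7, Aqp8, Aqp9 and Aqp11, and all transcripts listed under each name were summed to 1 level per gene and mouse. All 8 were among the 35241 genes of the table and were above 0 in some mouse, 6 of them in every mouse. Aqp5 was listed at 0 in all mice but 1, and Aqp9 in 1 mouse. The 5 members with a mean level of at least 0.5 (Aqp1, Aqp4, Aqp7, Aqp8 and Aqp11) were among the 15880 genes tested together, and Aqp3, Aqp5 and Aqp9 were below that level.

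RNA from full-thickness distal colon of 12 mice was sequenced mouse by mouse. In 6 Spry2IEKO mice, Vil1::Cre, which is active in the intestinal epithelium, deletes the floxed Spry2 gene (Sprouty2, an intracellular inhibitor of growth factor signaling), and 6 Spry2FF littermates with the same floxed alleles and no Cre were the controls. Litters A and B each held 3 mice of each genotype, with 3 males among the Spry2FF mice and 1 male (replicate 8, litter B) among the Spry2IEKO mice, all others being female. The labels give ages of both 6 and 8 weeks. No treatment was applied. Because the deletion is limited to the epithelium, the other cell types of the colon wall kept Spry2, and the tissue held all of them together.

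Aquaporins are membrane channels that let water cross along osmotic gradients. Each folds around a pore in which a pair of short loops, each usually carrying the residues asparagine, proline and alanine, meet in the middle of the membrane. Aquaglyceroporins, a subgroup with Aqp3, Aqp7 and Aqp9, also pass glycerol. The distal colon absorbs water from its contents, and Aqp8 is the aquaporin best known from its surface epithelium.

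Levels are given as normalized TPM, a share of transcripts (TPM) that the authors scaled once more between mice. TPM is corrected for transcript length, so levels of different genes can be set side by side. The 12 mice had totals of 918816 to 1069158. Since these do not count reads, sequencing depth cannot be read from them, and errors are given as the spread between mice. Spry2 itself was measured at 22.8 to 32.3 in Spry2FF mice and 18.5 to 22.5 in Spry2IEKO mice, with no overlap (log2 difference -0.45, SE 0.0877, limma adjusted p = 0.160). Epithelium markers summed to between 5659 and 8311 in each mouse, smooth muscle markers to between 3327 and 8164, and posterior Hox genes to between 408 and 542, and the labelled tissue was thus represented by its defining genes in every mouse.

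The paired pore loops are encoded by short stretches of the messenger RNA, and these are shown for 5 members because they show where the family's pore signature is kept and where it is changed. Each stretch runs 5′ to 3′ on the coding strand with the 3 loop codons in capitals, and was read from the complete coding transcript with the highest level of that gene in these mice (GENCODE M21, GRCm38). 
Aqp8 first loop: ggacacttcAACCCTGCTgtgtcgctg
Aqp8 second loop: gcctgcatgAACCCTGCTcgtgccttt
Aqp1 first loop: gctcacctcAACCCTGCGgtcacactg
Aqp1 second loop: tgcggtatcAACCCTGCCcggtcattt
Aqp3 first loop: gcccacttgAACCCCGCTgtgaccttc
Aqp3 second loop: tatgccgtcAACCCTGCCcgtgacttt
Aqp7 first loop: gcccacatgAATGCCGCAgtgactttc
Aqp7 second loop: tatgcaatcAACCCATCCcgtgacctg
Aqp11 first loop: acagctagcAACCCGTGCggcgtgatg
Aqp11 second loop: gcattgtttAACCCAGCGctggcactt

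In Aqp8, Aqp1 and Aqp3 both stretches encode asparagine-proline-alanine. Aqp7 reads asparagine-alanine-alanine in the first and asparagine-proline-serine in the second, and Aqp11 reads asparagine-proline-cysteine in the first. Aqp9 carries asparagine-proline-alanine at both places. The Aqp8 stretches lie in exons 3 and 5 of 6 on chromosome 7 (123464193 to 123464219 and 123466602 to 123466628, + strand). The Aqp1 stretches lie in exons 1 and 3 of 4 on chromosome 6 (55336707 to 55336733 and 55345828 to 55345854, + strand). The Aqp3 stretches lie in exons 3 and 5 of 6 on chromosome 4 (41094810 to 41094836 and 41093832 to 41093858, - strand), and those of Aqp7 also in exons 3 and 5 of 6 on chromosome 4 (41035602 to 41035628 and 41034804 to 41034830, - strand). The Aqp11 stretches lie in exons 1 and 2 of 3 on chromosome 7 (97737676 to 97737702 and 97729044 to 97729070, - strand). All of these are coding sequence.

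Aqp8 made up most of the aquaporin RNA of the distal colon. Its level was 554 ± 171 (SD, n = 12), with a median of 587, and it ranked between 140 and 432 among all genes of a mouse. It took 77.8% to 93.7% of the summed level of the 8 members, with a median of 89.5%, and the sum itself ran from 387 to 1018. Aqp1, the water channel of endothelial cells and red blood cells, came next with a median of 35.1. Aqp4, a water channel of the basolateral membrane of some epithelia and of glia, had a median of 21.2, and Aqp11, a divergent aquaporin of intracellular membranes, one of 10.9.

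The remaining 4 members were near the lower end of the table. Aqp7, the glycerol channel of fat cells, had a median level of 0.446, and Aqp3, a glycerol and water channel of the basolateral membrane of epithelia, one of 0.279 with a highest value of 0.556. Aqp9, a glycerol channel known from liver and leukocytes, had a median of 0.162. Aqp5, a water channel of salivary and other glands, was above 0 only in Spry2IEKO replicate 5, at 0.211. A value of 0 here says only that the gene was listed at 0.

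Aqp8 was above Aqp1 in all 12 mice, and Aqp11 was above Aqp7 in all 12, and in neither case did the ranges overlap. The other neighbours in the order overlapped. Aqp1 was above Aqp4 in 10 of 12 mice, Aqp4 above Aqp11 in 10, Aqp7 above Aqp3 in 11 and Aqp3 above Aqp9 in 10. Of the 4 other genes of the family in the table, Aqp2 and Aqp6 were listed at 0 in every mouse, Mip did not exceed 0.207 and Aqp12 did not exceed 0.369. Aqp2, Aqp5 and Aqp6 lie close together on chromosome 15 (99579055 to 99605477 from the start of Aqp2 to the end of Aqp6), and all 3 were at or near 0.

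**Figure D1:**
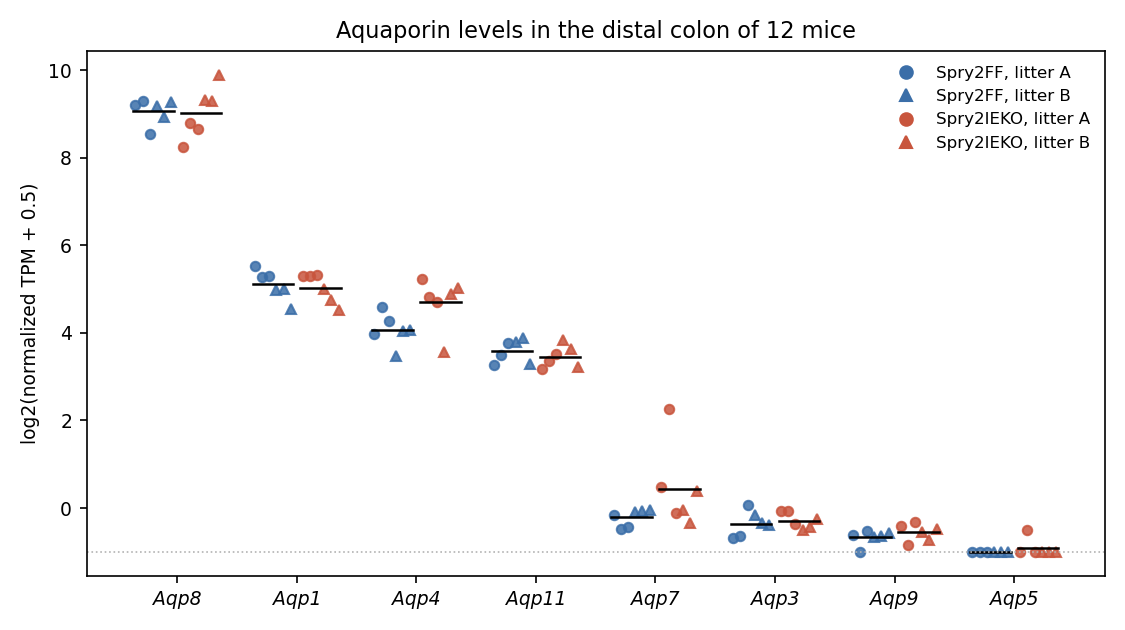
Level of each of the 8 aquaporins in each of 12 mice, as log2(normalized TPM + 0.5), by genotype (color) and litter (shape). Black bars are group means, and the dotted line is a level of 0. Aqp8 stands above all others in every mouse, and Aqp7, Aqp3, Aqp9 and Aqp5 sit near the line except Aqp7 in Spry2IEKO replicate 5.

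The genes with 1 transcript in the table were Aqp1 (chromosome 6, 55336432 to 55348555) and Aqp4 (chromosome 18, 15389496 to 15410982). Aqp8 (chromosome 7, 123462291 to 123468004) was spread over 3 transcripts. ENSMUST00000033023.9 held 70.1% of its mean level and ENSMUST00000098056.5 held 24.7%, and both encode the protein. The third, a processed transcript without a coding region, held 5.29% and ran from 9.48 to 83.4 between mice. Aqp11 (chromosome 7, 97724006 to 97738289) was mostly carried by its coding transcripts ENSMUST00000206389.1 (60.7%) and ENSMUST00000084986.7 (31.5%). Of 10 Aqp9 transcripts (chromosome 9, 71110659 to 71168682) and 6 Aqp5 transcripts (chromosome 15, 99590782 to 99594829), 1 of each was above 0 in some mouse. Aqp7 (4 transcripts, chromosome 4, 41033074 to 41048139) and Aqp3 (2 transcripts, chromosome 4, 41092722 to 41098183) are neighbours on the same strand with 44582 bases and no protein-coding gene between them, and both were low.

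Between genotypes, no aquaporin passed the threshold. Over all 15880 genes, 5 had an adjusted p under 0.05 in limma, or 0.0315%, and 981 an unadjusted p under 0.05, or 6.18%. Of the 5 members tested, 0 passed with adjustment and 1, Aqp4, had an unadjusted p under 0.05. The median log2 difference of all genes was 0.01. None of the 5 separated the genotypes without overlap, against 0.403% of all genes. In whole tissue, fewer cells of a type and less RNA per cell cannot be told apart.

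Of the members, Aqp4 differed most relative to its standard error. In Spry2FF mice it measured 15.3, 23.6 and 18.7 in litter A (replicates 2, 3 and 7) and 10.6, 16.1 and 16.2 in litter B (replicates 9, 10 and 13). In Spry2IEKO mice it measured 37.2, 27.8 and 25.5 in litter A (replicates 4, 5 and 6) and 11.3, 29.3 and 31.8 in litter B (replicates 8, 11 and 12). Thus 5 of 6 Spry2IEKO mice were above every Spry2FF mouse, and replicate 8 was below all Spry2FF mice but 1. The means were 16.7 ± 4.28 and 27.2 ± 8.73 (SD, n = 6 each). On the log2 scale the difference was 0.64 (SE 0.253, 95% interval 0.09 to 1.18), with a limma adjusted p of 0.753.

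The difference of Aqp4 was of nearly the same size in both litters, at 0.64 (SE 0.204) for litter A and 0.63 (SE 0.411) for litter B, each with 3 mice of each genotype. This likeness depended on Spry2IEKO replicate 8 of litter B. Litter B differed from litter A by -0.01, but by 0.45 without replicate 8 and by 0.42 with sex as a covariate. With litter as a covariate, which the main genotype comparison left out, the Aqp4 difference was 0.64 (SE 0.233, adjusted p = 0.511). An exact permutation test of the means over all 924 splits gave p = 0.0303, and 0.035 when mice were exchanged only within litters. These are unadjusted and belong to a family of 24 exact tests over the members and their shares, of which 6 had a p under 0.05. Sex was unevenly divided, and replicate 8 was the only Spry2IEKO male. Without it the log2 difference was 0.86 with adjusted p = 0.107, and with sex as a covariate it was 0.45 (SE 0.236, unadjusted p = 0.0813, adjusted p = 0.999). With any 1 mouse left out the difference ran from 0.52 to 0.86. The unadjusted limma p was then above 0.05 without Spry2FF replicate 9 (0.0635) and without Spry2IEKO replicate 4 (0.0608) or 12 (0.0548).

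In females alone, Aqp4 ran from 16.1 to 18.7 in 3 Spry2FF mice and from 25.5 to 37.2 in 5 Spry2IEKO mice. These ranges did not overlap, and the exact permutation p of 0.0179 was the smallest that 56 splits allow. The limma log2 difference among females was 0.81 (SE 0.129, adjusted p = 0.314). The males of the Spry2FF group spread from 10.6 to 23.6 and so enclosed the Spry2IEKO male. The females-alone exact test was added after the values had been seen.

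Goblet cell markers had the same direction as Aqp4. All 8 of the list, which holds the mucin Muc2 and the trefoil peptide Tff3, were higher in Spry2IEKO mice, 0 with an adjusted p under 0.05 and 7 with an unadjusted one, with a median log2 difference of 0.52. Their summed level ran from 8020 to 12157 in Spry2FF mice and from 9611 to 18563 in Spry2IEKO mice, and the lowest Spry2IEKO mouse was again replicate 8. Surface colonocyte markers were lower in Spry2IEKO mice in 9 of 10 cases, 0 called and 4 with an unadjusted p under 0.05, with a median of -0.31. Relative to the summed level of 10 epithelium markers, 8 of which were lower in Spry2IEKO mice, Aqp4 was 0.230 per 100 in Spry2FF and 0.427 per 100 in Spry2IEKO mice (exact permutation p = 0.0260), an alternative added after the values had been seen and outside the family of 24 tests. Whether these cells carry the Aqp4 difference was not tested.

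**Figure D2:**
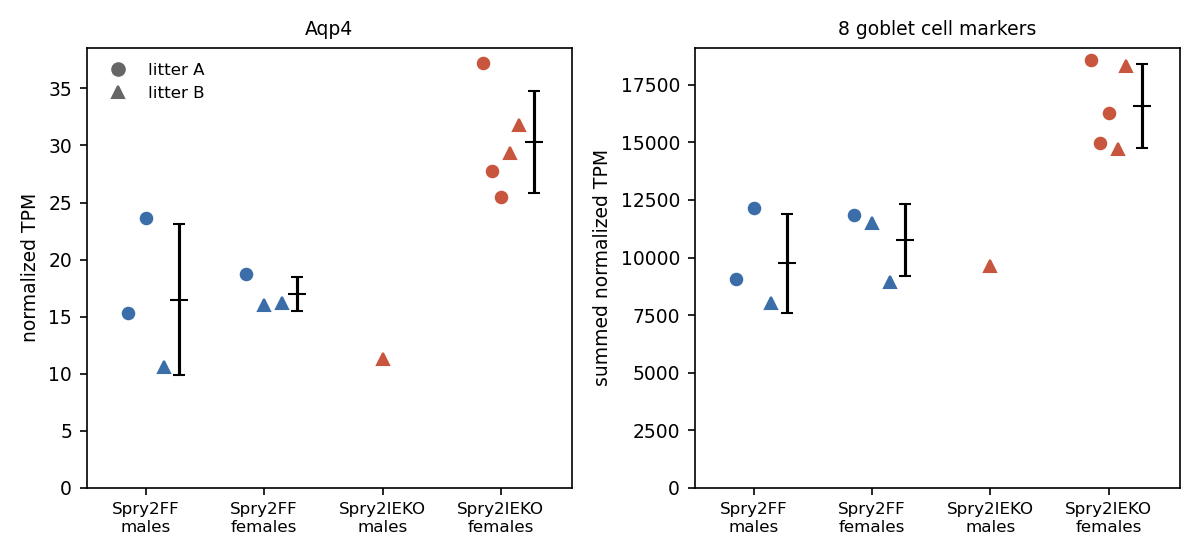
Aqp4 (left) and the sum of 8 goblet cell markers (right) in each mouse as normalized TPM, by genotype and sex, with litter as shape. Bars are mean and SD where a group has more than 1 mouse. The 5 Spry2IEKO females sit between 25.5 and 37.2 for Aqp4, above all Spry2FF mice, and the single Spry2IEKO male is at 11.3.

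Enteric glia are another cell type to which Aqp4 has been assigned. Of 7 glial markers tested, 4 were higher and 3 lower in Spry2IEKO mice, 0 called and 0 with an unadjusted p under 0.05, and their sum ran from 15.2 to 29.0 in Spry2FF and from 10.4 to 26.4 in Spry2IEKO mice. The complex that anchors Aqp4 to the membrane, built from dystrophin, dystroglycan and syntrophin, was split between directions. Of its 7 genes 4 were higher and 3 lower in Spry2IEKO mice, 0 called and 0 with an unadjusted p under 0.05, with a median log2 difference of 0.00. The gene with the largest difference relative to its SE was Dag1, dystroglycan, at -0.20 (SE 0.125, adjusted p = 0.844).

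Aqp8 did not separate the genotypes. Spry2FF mice spanned 375 to 631 around a median of 587. Spry2IEKO mice spanned 301 to 953 around a median of 534. The log2 difference was -0.05 (SE 0.238, 95% interval -0.56 to 0.47, limma adjusted p = 0.985), and its sign turned with sex as a covariate, at 0.06, and in females alone, at 0.05. With litter as a covariate the difference was -0.05 with a smaller SE of 0.195 (adjusted p = 0.965). The spread differed between the groups, with a coefficient of variation of 18.1% in Spry2FF and 41.7% in Spry2IEKO mice.

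The order of the genotypes differed by litter. In litter A, Aqp8 was 591, 631 and 375 in Spry2FF and 301, 440 and 400 in Spry2IEKO mice. The values 591 and 631 were those of males, and all other mice of litter A were female. The Spry2FF female, at 375, lay within the Spry2IEKO range. Sex and genotype were thus mixed in litter A, and their parts were not tested there. In litter B it was 584, 488 and 621 in Spry2FF and 640, 627 and 953 in Spry2IEKO mice. The genotype difference was -0.47 in litter A (SE 0.236, adjusted p = 0.738) and 0.37 in litter B (SE 0.189, adjusted p = 0.959). The difference between the 2 was 0.84 on the log2 scale (SE 0.320, 95% interval 0.13 to 1.54, limma adjusted p = 0.998). For this interaction 2 of all genes had an adjusted p under 0.05, or 0.0126%, and 665 an unadjusted one, or 4.19%. Of the 5 members 0 passed with adjustment, and Aqp8 alone had an unadjusted p under 0.05. With sex as a covariate the Aqp8 interaction was 0.72 (unadjusted p = 0.0648). Its unadjusted p was also between 0.0571 and 0.0618 without Spry2FF replicate 2, 3 or 10 or Spry2IEKO replicate 4 or 12. Without Spry2IEKO replicate 12 the interaction was 0.64 (adjusted p = 0.997).

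Set against 10 surface colonocyte markers, Aqp8 read differently. It stood at 6.53 ± 0.796 per 100 of their summed level in Spry2FF mice and 8.19 ± 1.39 in Spry2IEKO mice (exact permutation p = 0.0281, n = 6 each), an alternative chosen after the values had been seen. The ranges, 5.60 to 7.73 and 6.44 to 10.2, overlapped. The markers summed to between 5982 and 10062 in Spry2FF and between 4672 and 10282 in Spry2IEKO mice. Of the 10 markers, 9 were lower in Spry2IEKO mice.

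Aqp1, Aqp11 and Aqp7 gave no genotype call. Aqp1 was 34.8 ± 7.76 in Spry2FF and 33.0 ± 7.21 in Spry2IEKO mice, a log2 difference of -0.07 (SE 0.174, 95% interval -0.45 to 0.30, adjusted p = 0.963), and its sign turned in females alone, at 0.08. The main fit left out litter, and with litter as a covariate the SE of the Aqp1 difference fell to 0.0976 (difference -0.07, adjusted p = 0.865). Aqp11 was 11.7 ± 2.21 and 10.6 ± 2.02, a difference of -0.13 (SE 0.146, 95% interval -0.45 to 0.18, adjusted p = 0.912).

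Aqp7 turned on a single mouse. It was 0.394, 0.220 and 0.246 in Spry2FF mice of litter A and 0.433, 0.458 and 0.469 in those of litter B. In Spry2IEKO mice it was 0.895, 4.26 and 0.422 in litter A and 0.466, 0.289 and 0.813 in litter B. Replicate 5, at 4.26, was far above the others, and replicates 4, 5 and 12 were above every Spry2FF mouse. The log2 difference was 0.65 (SE 0.372, adjusted p = 0.837), and 0.28 without replicate 5 (adjusted p = 0.857). The exact permutation p of the means was 0.0628, and 0.106 without replicate 5.

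Fat cell markers stood out in the same mouse. The 10 markers, which include the hormone Adipoq and the lipid droplet protein Plin1, summed to 1242 in replicate 5 and to 655 in replicate 4, and to between 29.3 and 123 in the other mice. Replicate 12, with Aqp7 at 0.813, had a fat marker sum of 29.9, among the lowest. Of the 9 fat markers tested, 9 were higher in Spry2IEKO mice, 0 called and 1 with an unadjusted p under 0.05. The genes whose pattern over the 12 mice was closest to that of Aqp7 were Dgat2 (r = 0.949), Clstn3 (r = 0.947) and Nrg4 (r = 0.933), as Pearson correlations of the log2 levels over mice of the same libraries. The part of fat in the Aqp7 level was not tested beyond these values. Replicate 5 was also the only mouse with Aqp5 above 0, but at a level of 0.211 near the lower end of the table, and a link to fat was not tested.

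**Figure D3:**
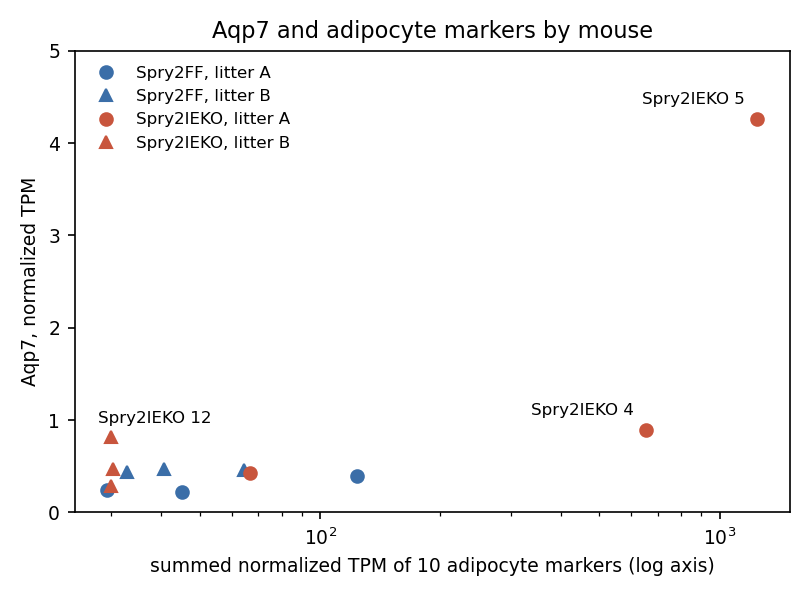
Aqp7 (normalized TPM) against the summed level of 10 adipocyte markers (normalized TPM, log axis) in each of 12 mice, by genotype and litter. Spry2IEKO replicate 5 is highest on both axes, at 4.26 and 1242, and replicate 12 has the third highest Aqp7 with a marker sum of 29.9.

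Of the other genes that handle glycerol and urea, 8 of 10 could be tested, and 6 were higher and 2 lower in Spry2IEKO mice, 0 called and 1 with an unadjusted p under 0.05. Pck1, the entry enzyme of glycerol synthesis from small precursors, had the largest difference relative to its SE, at 0.45 (SE 0.143, adjusted p = 0.674). Lipe, hormone-sensitive lipase, which is also in the fat list, was at 0.79 (SE 0.402, adjusted p = 0.829).

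The 3 low members gave no p under 0.05 between genotypes. Aqp3 was 0.295 ± 0.164 in Spry2FF and 0.326 ± 0.106 in Spry2IEKO mice (exact permutation p = 0.699). Aqp9 was 0.132 ± 0.0686 and 0.185 ± 0.0911 (exact permutation p = 0.294), with 0 in Spry2FF replicate 3. With 1 mouse above 0, Aqp5 gave an exact permutation p of 1. Of the cells in which these members are known, squamous epithelium was represented by 3 of 10 markers above the filter, with Krt6a listed at 0 in every mouse and a sum of 3.02 to 7.42. Of 8 neutrophil markers 2 were above the filter, with Retnlg at 0, and of 8 macrophage markers all were. Between genotypes 0 of these markers were called and 1, Krt14, had an unadjusted p under 0.05, and Cd68 was called lower in litter B at -0.87 (SE 0.182, adjusted p = 0.0257).

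Between litters, Aqp1 was the aquaporin that passed the threshold. In litter B 696 of all genes differed from litter A with an adjusted p under 0.05, or 4.38%, of which 171 (1.08%) were higher and 525 (3.31%) lower, and 3475 (21.9%) had an unadjusted p under 0.05. Of the 5 members, 1 passed with adjustment, Aqp1, and it was lower in litter B. Aqp1 and Aqp8 had an unadjusted p under 0.05. The library names start differently in the litters, so litter and set of libraries cannot be told apart. The median log2 difference of all genes was -0.05.

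Aqp1 was 45.3, 38.4 and 39.0 in Spry2FF and 38.9, 39.0 and 39.3 in Spry2IEKO mice of litter A. In litter B it was 31.3, 31.8 and 23.0 in Spry2FF and 31.6, 26.6 and 22.6 in Spry2IEKO mice. All 6 mice of litter B were below all 6 of litter A, a separation seen for 3.72% of all genes. The litter means were 40.0 ± 2.63 and 27.8 ± 4.33 (SD, n = 6 each). The log2 difference was -0.53 (SE 0.0976, 95% interval -0.74 to -0.31, limma adjusted p = 0.0170), and the exact permutation p was 0.00216, the smallest that 924 splits allow.

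The fall of Aqp1 held without any 1 mouse, with adjusted p between 0.0141 and 0.0478. It was -0.52 in Spry2FF and -0.54 in Spry2IEKO mice taken alone and -0.61 in females alone. In these smaller sets the adjusted p was 0.244, 0.304 and 0.109, past the threshold in none.

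Blood endothelium markers were lower in litter B too. Of 10 markers, 8 were called lower in litter B and 0 higher, with a median log2 difference of -0.96. The 8 included Cdh5, the cadherin of endothelial junctions, at -1.12 (SE 0.129, adjusted p = 0.00497), Pecam1 at -1.03 (SE 0.182, adjusted p = 0.0152) and Kdr, the receptor of VEGF, at -0.94 (SE 0.155, adjusted p = 0.0133). The markers summed to between 82.8 and 145 in litter A and between 42.6 and 60.1 in litter B. Per 100 of that sum, Aqp1 went from 41.6 ± 7.88 to 54.3 ± 14.7, so the direction turned (exact permutation p = 0.108), in an alternative added after the values had been seen. Red blood cell genes, the other known site of Aqp1, were lower in litter B in 5 of 5 cases, 0 called and 0 with an unadjusted p under 0.05. Hba-a1 and Hbb-bs are globin genes with near-identical copies, and their reads can be split between copies. Other lists fell in litter B as well. Macrophage markers were lower in 8 of 8 cases (median -0.74, 1 called) and the tested fat markers in 9 of 9 (median -1.82, 0 called). Smooth muscle markers were lower in 6 and higher in 2 cases (median -0.04), and epithelium and surface colonocyte markers were each higher in 6 of 10. The share of the Aqp1 difference that goes with endothelium was not tested further.

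The genes closest to Aqp1 over the 12 mice were Rab5b (r = 0.954), Kif13a (r = 0.953) and Yipf6 (r = 0.947), none of them an endothelial marker of the list. After the group means of genotype and litter were taken out, the correlations were 0.830, 0.826 and 0.829. All points of such correlations share their libraries and the same scaling.

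Aqp8 was higher in litter B on average. It averaged 456 ± 129 in mice of litter A against 652 ± 158 in those of litter B. The log2 difference was 0.53 (SE 0.195, limma p = 0.0184, adjusted p = 0.135, exact permutation p = 0.0281). The groups overlapped, since the highest mouse of litter A (631) was above 4 mice of litter B. The difference was 0.11 (SE 0.214) in Spry2FF and 0.95 (SE 0.214) in Spry2IEKO mice. Both coding transcripts moved alike, from 319 to 457 for ENSMUST00000033023.9 (exact permutation p = 0.0195) and from 113 to 160 for ENSMUST00000098056.5 (exact permutation p = 0.0325).

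Surface colonocyte markers were split in direction, with 6 of 10 higher and 4 lower in litter B. Muc3, a membrane mucin, was called higher at 0.72 (SE 0.142, adjusted p = 0.0212), and Guca2a, the hormone guanylin, was called lower at -0.57 (SE 0.121, adjusted p = 0.0264). Their sum ran from 4672 to 8600 in litter A and from 6256 to 10282 in litter B. Per 100 of it Aqp8 was 7.08 ± 0.705 and 7.64 ± 1.88 (exact permutation p = 0.502). Over the 12 mice Aqp8 was most like Gm48493 (r = 0.942), Nlrp9b (r = 0.925) and Ces2e (r = 0.924).

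**Figure D4:**
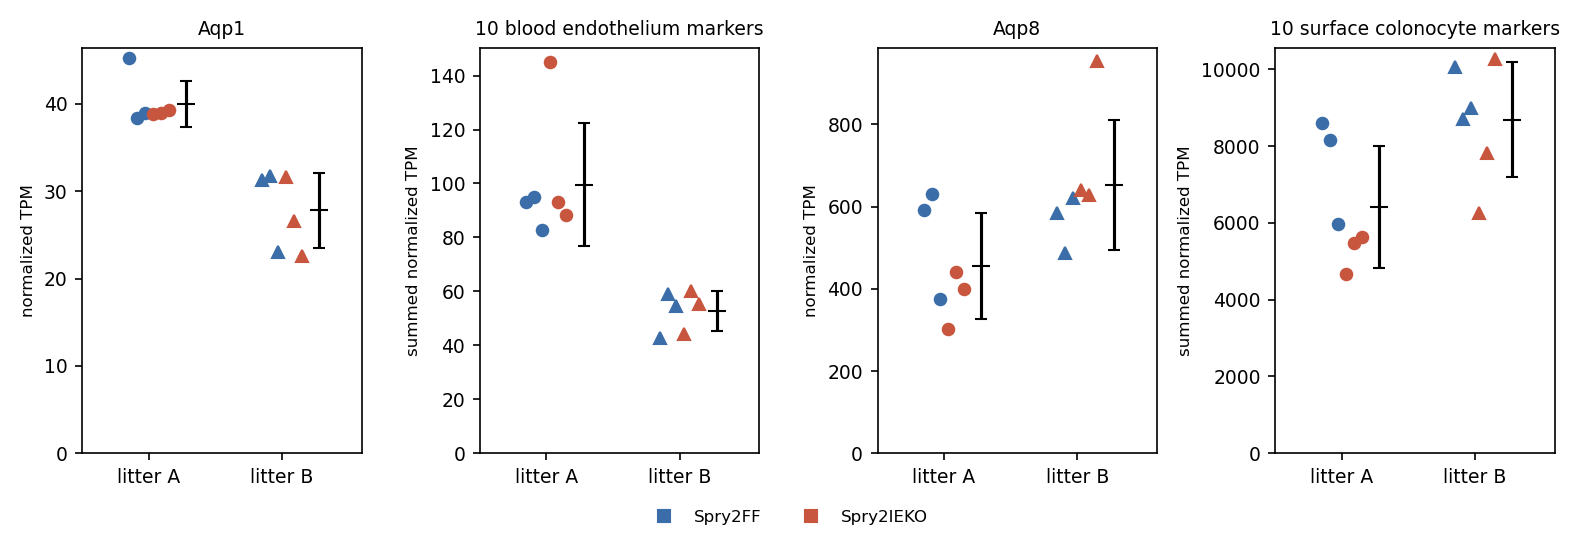
Aqp1, the sum of 10 blood endothelium markers, Aqp8 and the sum of 10 surface colonocyte markers in each mouse by litter, all as normalized TPM. Color gives the genotype, and bars are mean and SD (n = 6). Aqp1 and the endothelium sum do not overlap between litters, at 38.4 to 45.3 against 22.6 to 31.8 for Aqp1, whereas Aqp8 and the colonocyte sum do.

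The other tested members gave no litter call. Aqp4 was 24.7 ± 7.64 against 19.2 ± 9.12 (log2 difference -0.42, SE 0.233, adjusted p = 0.314). Aqp7 was at -0.29 (SE 0.376, adjusted p = 0.690), which turned to 0.28 in Spry2FF mice alone. Aqp11 was 10.4 ± 1.65 and 11.9 ± 2.36 (log2 difference 0.18, SE 0.141, adjusted p = 0.494), and it was -0.01 in females alone. The exact permutation p was 0.597 for Aqp3 and 0.939 for Aqp9.

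The make-up of the aquaporin pool differed between litters. Aqp8 took 84.8% ± 4.36 of the sum in litter A against 91.3% ± 1.81 for litter B (exact permutation p = 0.00866, n = 6 each). Aqp1 took 7.80% ± 1.59 and 4.11% ± 1.24 (exact permutation p = 0.00433), and Aqp4 5.02% ± 2.53 and 2.66% ± 0.985 (exact permutation p = 0.0368). The Aqp4 share no longer reached 0.05 without Spry2IEKO replicate 5, 8 or 12, with exact permutation p = 0.0606, 0.0823 and 0.0563. Because Aqp8 dominates the sum, a rise in its level alone lowers the shares of the other members. The Aqp11 share was 2.04% ± 0.567 and 1.77% ± 0.600 (exact permutation p = 0.439). These shares do not depend on how the mice were scaled to each other.

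Between genotypes, none of the shares had a p under 0.05 over all splits. Aqp8 took 89.2% ± 2.98 in Spry2FF and 86.9% ± 5.98 in Spry2IEKO mice (exact permutation p = 0.431). Aqp4 took 2.81% ± 0.888 and 4.87% ± 2.72 (exact permutation p = 0.0844), and p was 0.035 when mice were exchanged only within litters and 0.0130 without Spry2IEKO replicate 8. With any 1 mouse left out, that p ran from 0.0130 to 0.173 and the difference from 1.12 to 2.72 percentage points. The lowest Aqp8 share, 77.8%, and the highest Aqp4 share, 9.61%, were those of the same mouse, Spry2IEKO replicate 4.

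**Figure D5:**
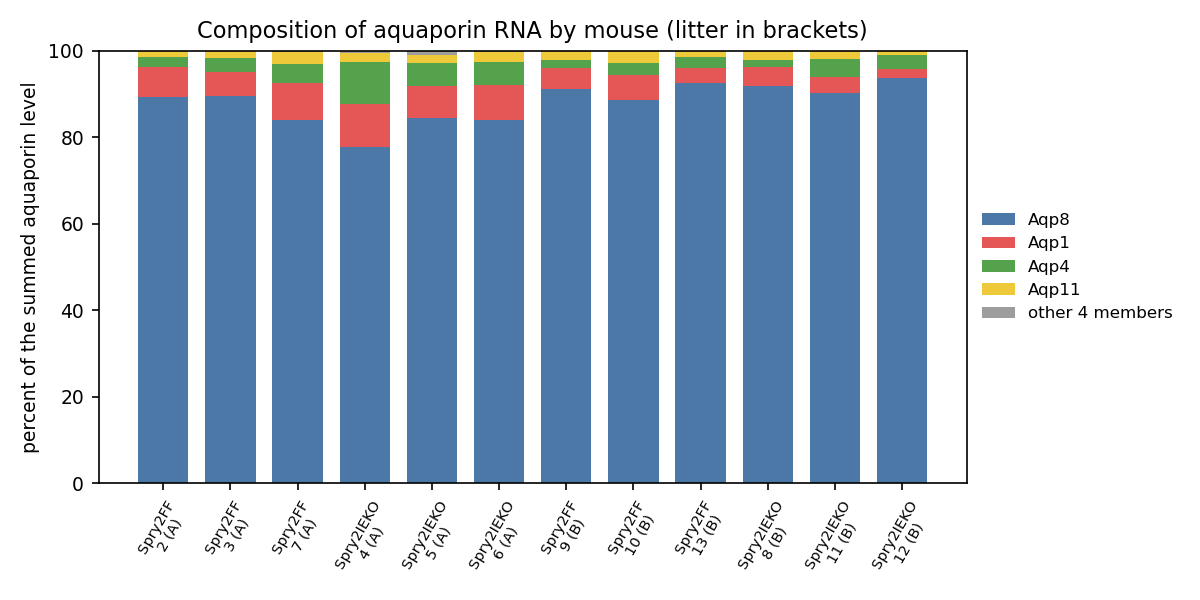
Percent of the summed aquaporin level taken by each member in each mouse, ordered by litter and genotype. Aqp8 fills between 77.8% and 93.7% of each bar, and the 4 lowest members together are barely visible.

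The ion transporters that drive water movement in the colon were read from lists. Of 14 absorptive genes, 11 were lower in Spry2IEKO mice, 0 called and 3 with an unadjusted p under 0.05, with a median log2 difference of -0.14. Scnn1a, the alpha subunit of the epithelial sodium channel, had the largest difference relative to its SE, at -0.23 (SE 0.0621, adjusted p = 0.561). Between litters 0 of the 14 were called and 5 had an unadjusted p under 0.05, and Slc26a3, the chloride and bicarbonate exchanger of the surface epithelium, was at 0.68 (SE 0.185, adjusted p = 0.0572).

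Of 12 secretory genes, 0 were called between genotypes, with 2 at an unadjusted p under 0.05, and 3 were called lower in litter B. These were Cftr, the chloride channel of fluid secretion, at -0.41 (SE 0.102, adjusted p = 0.0436), Slc4a7, a bicarbonate importer, at -0.43 (SE 0.0822, adjusted p = 0.0197), and Guca2a. Of 9 tested genes of corticosteroid and vasopressin control, Sgk1, a kinase induced by aldosterone, was called higher in litter B at 0.96 (SE 0.237, adjusted p = 0.0429). Between genotypes 3 of the 9 were higher and 6 lower in Spry2IEKO mice, 0 called and 2 with an unadjusted p under 0.05. Fkbp5 had the largest difference relative to its SE, at -0.69 (SE 0.169, adjusted p = 0.435), and Sgk1 was at -0.84 (SE 0.350, adjusted p = 0.755). Of the glycerol list Gpd1l (-0.33, adjusted p = 0.0292) and of the anchoring list Dag1 (-0.37, adjusted p = 0.0225) were called lower in litter B.

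Over the 12 mice the genes most like Aqp4 were Rep15 (r = 0.976), Reg4 (r = 0.959) and Tspan13 (r = 0.956). The first kept r = 0.976 after group means were taken out and was again the closest of all genes tested. Reg4 is a known marker of secretory cells at the crypt base. For Aqp11 they were Gm11879 (r = 0.868), Nudt11 (r = 0.865) and Nav2 (r = 0.860), a looser likeness over the 12 mice than for the other members. This did not hold with group means taken out, where r was 0.840, 0.880 and 0.871, against 0.830, 0.826 and 0.829 for the genes of Aqp1. Among the members themselves, Aqp8 and Aqp1 had r = -0.65 over the 12 mice and -0.35 with the group means taken out, and Aqp4 and Aqp11 had -0.61 and -0.49.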

How the data were processed

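Bulk RNA of the whole colon wall was measured in 12 mice, whose genotype, litter and sex the labels give. The deposited signal is a TPM value per transcript, which the authors obtained with kallisto and sleuth and scaled between mice (CASAVA and mm10 are also named in the submitters' processing notes). Read length and layout are given differently by the labels and the study's methods. The table also holds test columns of the authors' own comparison, which were not used. Plans had assumed abundances, and the same tests were kept. The members and the gene lists were chosen with earlier results of these data known.

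Of 113974 entries, 781 repeated a transcript and were dropped. Transcripts were summed per gene, and genes averaging 0.5 or more over the mice were compared on log2(signal + 0.5), which understates changes of low genes, with limma 3.58.1 in R 4.3.3 (lmFit, eBayes with trend, two-sided, Benjamini-Hochberg). The litter comparison had genotype as covariate. Single values were compared by two-sided exact permutation over mice (Python 3.11.15, SciPy 1.17.1, NumPy 2.4.6, pandas 2.3.3, matplotlib 3.10.9). Both procedures were tested on simulated data. Depth is unknown from the values, so their precision is known only from the spread between mice.

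Genes named are the members, Spry2, the other family genes, the called or otherwise up to 3 highest-ranked genes of each list (a few of which are printed), and the 3 genes most like each member. Positions are those of GENCODE M21 on GRCm38. Alternatives were the pseudocount, the filter, covariates, rescaling, quantile normalization, subsets of mice and leaving out each mouse.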

Additional observations from a re-analysis of the deposited data

Results flagged for a closer look

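Among 48 groups of 6 mice (8 members, 4 groups each, and the shares), 8 held 1 mouse whose gap to the nearest other was large for the range of the group. Chance gives about 1 in 20 for a single group, but these groups share mice and values. The count therefore cannot be set against that rate. Aqp5 and Aqp7 of Spry2IEKO replicate 5 were counted both in its genotype and in litter A. With all other mice at 0, any Aqp5 value gives the largest possible gap. Aqp7 was 4.26 in Spry2IEKO replicate 5, which stood apart both in its genotype (others 0.289 to 0.895) and in litter A (others 0.220 to 0.895). The same mouse was the only one with Aqp5 above 0, at 0.211, and it held the highest fat marker sum. The Aqp5 value came from 1 of 6 transcripts and was near the lower end of the table. A link between it and Aqp7 or fat was not tested. Aqp7 in litter B was 0.813 in Spry2IEKO replicate 12 (others 0.289 to 0.469). Aqp8 in litter B was 953 in the same mouse (others 488 to 640). Aqp1 in litter A was 45.3 in Spry2FF replicate 2 (others 38.4 to 39.3). Aqp9 in Spry2FF mice was 0 in replicate 3 (others 0.136 to 0.197).

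The genotype difference of Aqp8 differed between the litters by 0.84 on the log2 scale, by the interaction term of limma (unadjusted p = 0.0240, adjusted p = 0.998). It lay between 0.72 and 0.93 under the 7 other settings of the fit and between 0.64 and 1.07 when 1 mouse was left out. The unadjusted limma p was 0.0648 with sex as a covariate and ran from 0.00329 to 0.0618 when 1 mouse was left out.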

How the results depend on the processing

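No paired analysis was possible because no replicate number is shared by the genotypes or by the litters, and nothing in the labels pairs single mice. Litter could be entered as a block, which the main genotype comparison left out, and with it 6 genes were called between genotypes, with no member among them (lowest adjusted p 0.511, for Aqp4). Between genotypes the 5 calls over all genes became 1 with no filter on low values, with sex as a covariate and in either litter alone, and 2 with quantile normalization or in females alone. Between litters the 696 calls became 422 with no filter and 1456 when every mouse was rescaled to the same total, but 1 in females alone, 2 in Spry2FF mice alone and 1 in Spry2IEKO mice alone, sets with fewer mice. When 1 mouse was left out, these counts ran from 1 to 11 between genotypes, from 178 to 957 between litters and from 2 to 5 for the interaction.

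Directions turned as follows. The log2 difference of Aqp8 between genotypes was 0.062 with sex as a covariate, 0.051 in females alone and 0.37 in litter B alone, and that of Aqp1 was 0.085 in females alone. The litter difference of Aqp11 was -0.013 in females alone and that of Aqp7 was 0.28 in Spry2FF mice alone. The interaction was 0.063 for Aqp1 and 0.076 for Aqp4 after rescaling, and 0.42 for Aqp4 with sex as a covariate. Aqp1 per 100 of the endothelium sum was 12.7 higher in litter B. The causes were not tested.

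With 1 mouse left out, log2 differences between genotypes ran from -0.19 to 0.027 for Aqp1 and from -0.22 to 0.11 for Aqp8, and between litters from -0.45 to 0.077 for Aqp7. The interaction ran from -0.17 to 0.093 for Aqp1, from -0.27 to 0.45 for Aqp4 and from -0.11 to 0.25 for Aqp11. The means of Aqp3 differed by -0.0037 to 0.0832 between genotypes and by -0.0845 to 0.0024 between litters. Those of Aqp5 differed by 0 to 0.0422 and by -0.0422 to 0, and those of Aqp9 between litters by -0.0355 to 0.0255. Between genotypes the share of Aqp1 differed by -0.595 to 0.968 percentage points, that of Aqp11 by -0.295 to 0.017 and that of Aqp8 by -3.62 to -0.44. The share of Aqp8 differed between litters by 5.10 to 7.47 points. Of the differences of single members and of Aqp1, Aqp4 and Aqp11 shares, 279 of 324 values with 1 mouse left out kept both direction and side of 0.05, as did 146 of 162 under the other settings. The side was that of the adjusted p for limma and of the exact permutation p otherwise. Crossings of 0.05 by an unadjusted limma p, such as those of Aqp4 between genotypes, are therefore not counted.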
